A study of Homo sapiens with 12 samples.

Results

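The genes described here build, crosslink and remodel the extracellular matrix, and their RNA was measured in hTERT-RPE1, an established human cell line from retinal pigment epithelium that carries telomerase. They were taken by symbol from a list of 49 genes, among 53361 rows of the deposited gene table: 14 collagen chains, 7 laminin chains, 14 glycoproteins, 5 proteoglycans and 9 remodelling enzymes and inhibitors. All 49 were found, and LAMA4, the only symbol with 2 rows, is represented by the row with the higher mean over the 12 libraries. There were 4 groups of 3 libraries, all from the same line. The control cells were untreated, and the labels give them neither a solvent nor a time. Reversine, an inhibitor of the mitotic kinase Mps1 that causes chromosomes to missegregate, was given at 0.5 µM for 24 h and washed out, and the cells were collected 48 h afterwards. BafA1 (bafilomycin A1), which blocks the proton pump of lysosomes, was given at 0.1 µM for 6 h. MG132, a proteasome inhibitor, was given at 1 µM for 24 h. The treatments therefore differed in length and timing as well as in agent. No label says whether replicate libraries stem from separate cultures, so p-values measure the spread between these libraries, which may be technical.

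The extracellular matrix is a secreted network in which fibrillar collagens give tensile strength, and laminins, type IV collagen, nidogens and perlecan form basement membranes. Glycoproteins such as fibronectin and thrombospondin link cells to that network through integrins, lysyl oxidases and transglutaminase crosslink it, and matrix metalloproteinases and their inhibitors (TIMPs) set its turnover. Retinal pigment epithelium rests on Bruch's membrane, to which it contributes a basement membrane, and TIMP3 is one of the proteins deposited there.

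Values are deposited FPKM (fragments relative to transcript length and to the number of mapped reads), so levels can be compared between genes, and read counts are unknown. Depth was estimated from the small positive value that most rows without reads take, which assumes FPKM without further scaling. Relative to the deepest library by this estimate, control 3, it was at least 0.826 in controls. It spanned 0.757 to 0.945 in the reversine group, 0.629 to 0.781 in the BafA1 group and 0.719 to 0.877 in the MG132 group. Reversine 1, BafA1 3, MG132 2 and MG132 3 had lower values in genes of higher GC content (slopes of −0.509 to −0.101 log2 units per 10 points of GC), whereas the slope was 0.103 to 0.235 in the other libraries. Control 3, MG132 2 and MG132 3 listed 9118 to 10150 rows at 0, against 889 to 4240 elsewhere. Among rows with a single transcript, the shortest above 0 was 82 nt in these 3 libraries and 52 to 60 nt in the others. The members' mean transcript lengths, where known, were at least 709.8 nt. Of 13 retinal pigment epithelium markers, OTX2 stood at 10.1 to 17.3 FPKM and MITF at 9.29 to 20.3 FPKM, while RPE65 was at 0.04 to 0.06 FPKM and 7 were within 2 times the value of a row without reads in every library. In the mesenchymal list, VIM ranged from 3336 FPKM in reversine 1 to 25592 FPKM in control 3. In bulk RNA, fewer cells expressing a gene and less RNA per cell cannot be told apart.

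The summed FPKM of the 49 genes was 9667 to 11882 in the control libraries and 4630 to 6726 after MG132, with 8334 to 13893 in the reversine group and 8321 to 11222 in the BafA1 group. The MG132 libraries were the lowest and did not overlap with any other group. With THBS1, one of the most abundant members, left out, the sums were 8125 to 9446 in control and 4594 to 6623 after MG132. A few other abundant members weigh heavily in these sums. Mean FPKM went from 1600 in control to 373 after MG132 for SPARC and from 1160 to 44.3 for TGM2. It went from 1230 to 1400 for FN1 and from 878 to 1180 for MMP2. Differences below are on the scale of log2(FPKM + 1), which understates changes of genes with low values. A gene is called higher or lower when limma's test gave an adjusted p (Benjamini-Hochberg over all 30712 rows tested) under 0.05. Of the members, 47 could be tested, and LAMA3 (0.13 to 0.54 FPKM) and LUM (0.31 to 0.71 FPKM) were below the filter on low values.

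**Figure D1:**
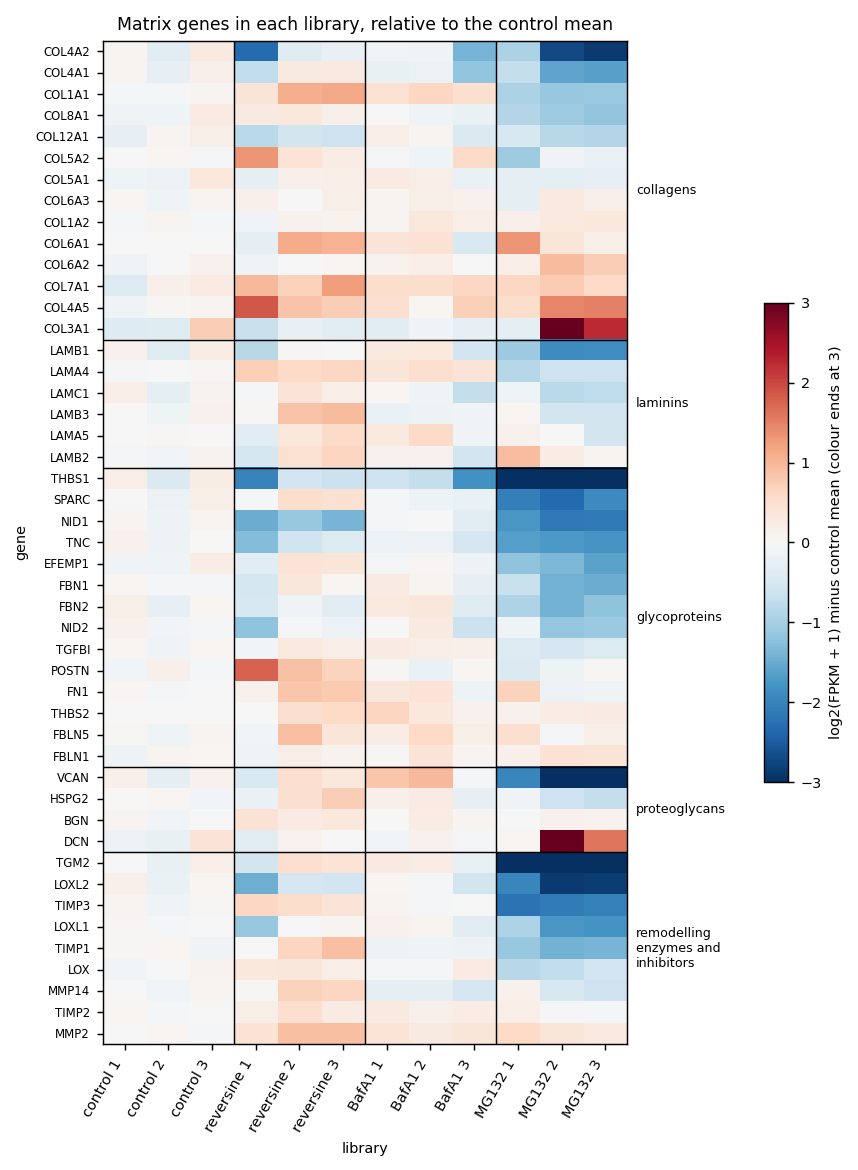
Difference of each library from the control mean on the scale of log2(FPKM + 1), for the 47 members tested (rows, by role, ordered by their difference after MG132) in the 12 libraries (columns); red is higher, blue lower, and the colour ends at 3. The MG132 columns hold the darkest blue, in THBS1, TGM2 and VCAN, and MG132 2 holds the darkest red, in COL3A1 and DCN.

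The comparison of MG132 with control asks how matrix genes stood after 24 h of proteasome inhibition. MG132 was followed by lower RNA of 20 members, among them thrombospondin 1 (THBS1), transglutaminase 2 (TGM2), versican (VCAN), lysyl oxidase-like 2 (LOXL2), TIMP3 and SPARC, and by higher RNA of 1, COL6A2. Of all rows tested, 14.8% were called, 7.67% as lower and 7.14% as higher, against 21 of the 47 members called. The median log2 difference was −0.47 over the members and 0.039 over all rows. Lower members numbered 6 of 9 among remodelling enzymes and inhibitors, 8 of 14 among glycoproteins, 1 of 4 tested proteoglycans, 2 of 6 tested laminin chains and 3 of 14 collagen chains. The median differences of these groups were −1.32, −0.99, −0.19, −0.45 and −0.10. The remaining 26 did not pass the test. Without the 4 libraries whose values fell with GC content, which leaves MG132 1 alone and assumes that it varies like the other groups, 15 members were lower and 4 higher (9.53% of all rows called), and 14 of the 21 calls were shared. Without control 3, MG132 2 and MG132 3, SPARC, NID1, TGM2 and TIMP3 were the 4 members still called (1.78% of all rows). That fit, too, left MG132 1 alone in its group, and it lost a control library as well. The 6 mesenchymal markers summed to 17700 to 26700 FPKM in control, 6080 to 15000 FPKM after MG132, 3820 to 12400 FPKM after reversine and 9230 to 20100 FPKM after BafA1, most of it VIM. After MG132, 1 of the 6, THY1, a surface glycoprotein, was called, lower at 73.3 ± 31.8 FPKM against 967 ± 83.3 FPKM (SD, n = 3; −3.78, adjusted p = 0.000182 in limma's test). Of the 6, 4 had differences below 0 after MG132 and 2 above. CDH2 was at 65.7 to 82.7 FPKM after MG132 against 61.6 to 63.2 FPKM in control. FAP was at 23.6 to 44.4 FPKM against 19.1 to 22.8 FPKM. After reversine 1 marker, FAP, was called, as higher (1.29, adjusted p = 0.0424 in limma's test). The part of these markers in the members' differences was not tested.

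To show the promoters of members that fell together, the 250 bases before the RefSeq start of transcription (GRCh38.p14) are given for 4 members with some of the most negative differences, THBS1, VCAN, TIMP3 and SPARC. They are followed by NID1, called lower after 2 treatments, and FN1, abundant and not called after MG132; these 6 were chosen after their values were seen. Capitals mark matches on either strand to a CCAAT box (CCAAT), a GC box (GGGCGG) or the TEAD-type motif GGAATG, and GC boxes of FN1 overlap one another.
THBS1 (chr15:39580829-39581078, plus strand): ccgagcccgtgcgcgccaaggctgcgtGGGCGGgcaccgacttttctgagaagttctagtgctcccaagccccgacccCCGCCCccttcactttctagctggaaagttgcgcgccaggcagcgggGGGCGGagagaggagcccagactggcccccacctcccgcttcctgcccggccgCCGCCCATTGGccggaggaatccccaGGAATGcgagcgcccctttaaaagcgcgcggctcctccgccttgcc
VCAN (chr5:83471494-83471743, plus strand): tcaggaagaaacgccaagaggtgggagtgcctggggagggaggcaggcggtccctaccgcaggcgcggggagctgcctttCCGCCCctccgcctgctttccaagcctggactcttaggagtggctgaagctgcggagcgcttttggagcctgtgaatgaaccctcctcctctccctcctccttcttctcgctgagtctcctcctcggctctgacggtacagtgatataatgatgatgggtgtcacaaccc
TIMP3 (chr22:32801455-32801704, plus strand): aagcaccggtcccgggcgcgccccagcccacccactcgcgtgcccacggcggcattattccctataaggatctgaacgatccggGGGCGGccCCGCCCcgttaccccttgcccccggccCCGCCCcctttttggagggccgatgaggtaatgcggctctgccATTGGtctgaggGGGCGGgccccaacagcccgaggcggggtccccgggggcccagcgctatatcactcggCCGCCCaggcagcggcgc
SPARC (chr5:151686916-151687165, minus strand): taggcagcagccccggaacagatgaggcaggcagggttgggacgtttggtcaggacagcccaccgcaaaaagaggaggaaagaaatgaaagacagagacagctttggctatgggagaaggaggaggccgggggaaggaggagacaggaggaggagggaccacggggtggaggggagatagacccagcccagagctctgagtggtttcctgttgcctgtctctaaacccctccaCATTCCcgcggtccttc
NID1 (chr1:236065091-236065340, minus strand): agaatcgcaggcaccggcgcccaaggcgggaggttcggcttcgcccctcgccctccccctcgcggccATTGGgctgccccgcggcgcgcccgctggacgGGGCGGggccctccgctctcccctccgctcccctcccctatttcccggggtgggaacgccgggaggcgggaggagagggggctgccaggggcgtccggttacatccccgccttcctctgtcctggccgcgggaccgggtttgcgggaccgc
FN1 (chr2:215436069-215436318, minus strand): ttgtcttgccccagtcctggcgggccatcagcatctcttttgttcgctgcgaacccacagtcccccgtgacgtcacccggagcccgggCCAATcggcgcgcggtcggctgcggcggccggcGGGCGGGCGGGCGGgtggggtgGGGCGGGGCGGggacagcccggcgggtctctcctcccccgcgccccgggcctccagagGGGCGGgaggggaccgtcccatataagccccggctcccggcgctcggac

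The THBS1 window holds a CCAAT match, 4 GC boxes and GGAATG starting 46 bases before the start of transcription. TIMP3 and FN1 hold 5 and 6 GC boxes with 1 CCAAT match each, VCAN 1 GC box, and NID1 1 GC box and 1 CCAAT match, while SPARC holds GGAATG on the opposite strand and none of the other motifs. Among the 36 members with a promoter in the RefSeq table, GGGCGG occurred in 28 and in 42.3% of all 27305 promoters of 250 bases. CCAAT occurred in 12 of the 36 and in 33.0% of all, and TATAAA in 4 and in 11.1%. GGAATG occurred in 5 (11.9% of all), 4 of them among the 15 members called lower after MG132 and 1 among the 21 others. The AP-1-type motif TGANTCA was found in 2 (6.6% of all) and the SMAD-type motif CAGACA in 7 (13.6% of all), of which 0 and 3 were called lower after MG132. These are matches of letters in a window, counted on both strands, and no test was made of them.

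Among glycoproteins, THBS1 (ENSG00000137801), which binds integrins and CD47 and can activate latent TGF-beta, stood at 2391, 1542 and 2436 FPKM in control 1 to 3 and at 103, 35 and 36.5 FPKM in MG132 1 to 3. The groups were far apart, with MG132 1 the highest of its group. The log2 difference was −5.32 (SE 0.54, adjusted p = 0.000268), and the ratio of group means was 36.6-fold. SPARC (ENSG00000113140), a collagen-binding matricellular protein, was at 1589, 1414 and 1805 FPKM in control and at 383, 316 and 421 FPKM after MG132. No MG132 library came near a control library, and the difference of −2.10 (SE 0.16, adjusted p = 6.84e-05) was called under all 24 alternative settings. NID1 (ENSG00000116962), nidogen 1, connects laminin to type IV collagen in basement membranes. Its values were 21.8, 18.4 and 21.9 FPKM in control and 5.48, 3.87 and 3.98 FPKM after MG132, a difference of −2.00 (SE 0.20, adjusted p = 0.00024).

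TNC, tenascin C, which modulates cell adhesion, stood at 27.9, 22.8 and 25.8 FPKM in control and 7.42, 7.0 and 6.80 FPKM after MG132 (−1.71, adjusted p = 0.00152). EFEMP1, a fibulin known for its link to deposits under the retinal pigment epithelium, stood at 142, 141 and 179 FPKM in control and 65.3, 59.2 and 49.4 FPKM after MG132 (−1.39, adjusted p = 0.00192). In both genes every MG132 library lay below every control library. The other 3 called glycoproteins were the microfibril proteins FBN1 (−1.19, adjusted p = 0.0167) and FBN2 (−1.18, adjusted p = 0.0133) and the adhesion protein TGFBI (−0.44, adjusted p = 0.0199). Fibronectin (FN1), the most abundant member of this group that was not called, stood at 1279, 1188 and 1215 FPKM in control and at 1977, 1078 and 1146 FPKM after MG132. MG132 1 was above the controls and the other 2 below them, so that the difference was 0.13 (SE 0.27, adjusted p = 0.741) and, without the 4 libraries whose values fell with GC content, 0.69 (adjusted p = 0.005). The NID2, POSTN, THBS2, FBLN1 and FBLN5 differences ran from −0.81 to 0.32 and did not pass.

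**Figure D2:**
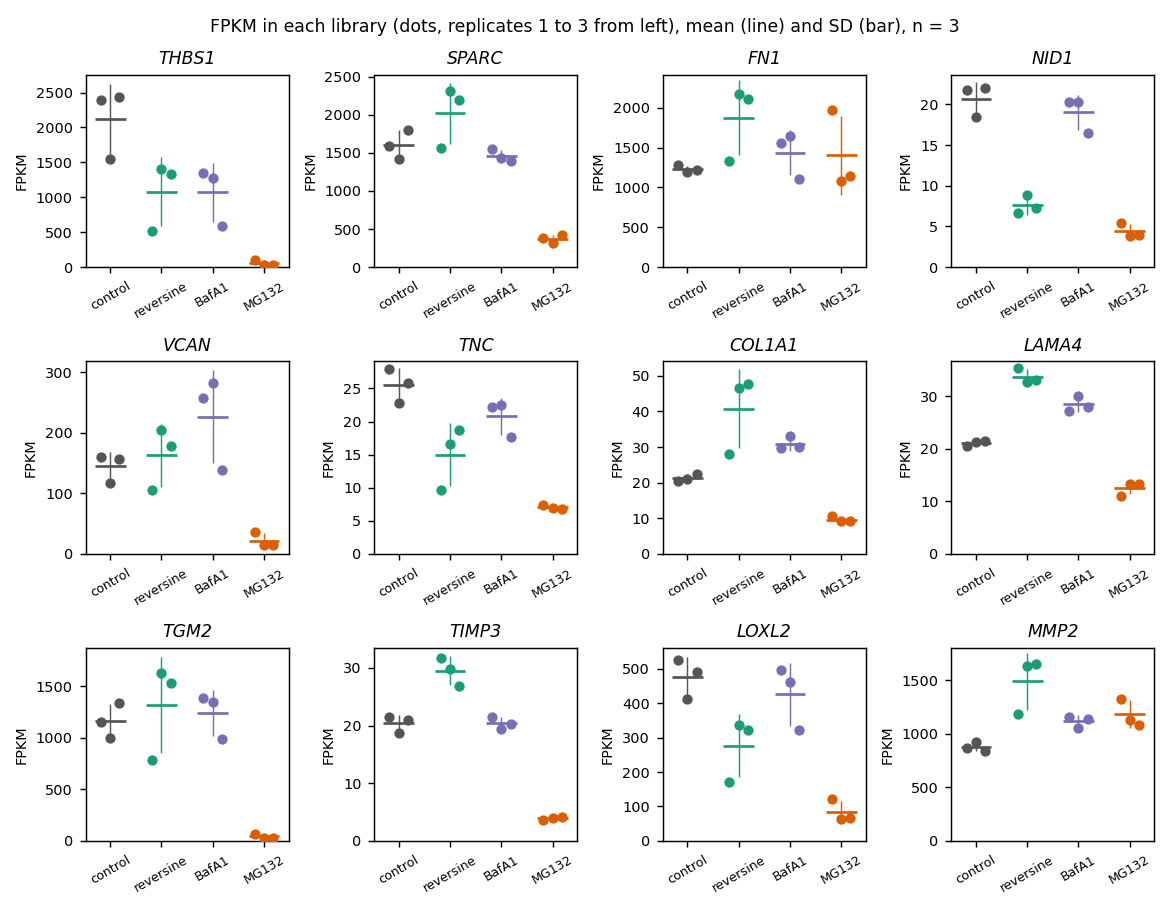
FPKM of 12 members in every library (dots, replicates 1 to 3 from left to right), with the mean (line) and SD (bar) of each group, n = 3; each axis starts at 0. THBS1, SPARC, VCAN, TGM2, TIMP3 and LOXL2 are lowest in the 3 MG132 libraries, and NID1 is low after reversine and after MG132. The mean of MMP2 is highest after reversine, although reversine 1 lies below MG132 1.

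Among remodelling enzymes and inhibitors, TGM2 (ENSG00000198959), which crosslinks matrix proteins, stood at 1157, 993 and 1332 FPKM in control and at 68.1, 32.4 and 32.3 FPKM after MG132. The groups were far apart, with a 26.2-fold ratio of means. The difference of −4.76 (SE 0.35, adjusted p = 4.85e-05) was called under all 24 alternative settings. TIMP3 (ENSG00000100234), the matrix-bound metalloproteinase inhibitor, was at 21.5, 18.7 and 21.0 FPKM in control and 3.62, 3.96 and 4.21 FPKM after MG132. Its 3 MG132 libraries lay close together and well below control (−2.12, SE 0.15, adjusted p = 3.84e-05). LOXL2, which oxidises lysines of collagen and elastin, fell from 527, 413 and 492 FPKM to 121, 64.6 and 65.6 FPKM (−2.55, SE 0.32, adjusted p = 0.000912). TIMP1, a soluble metalloproteinase inhibitor, stood at 193, 196 and 173 FPKM in control and at 85.2, 69.4 and 70.3 FPKM after MG132 (−1.32, adjusted p = 0.00239). LOX, the lysyl oxidase of fibrillar collagen, stood at 105, 109.7 and 119 FPKM in control and 61.7, 66.5 and 74.9 FPKM after MG132 (−0.71, adjusted p = 0.00366). LOXL1, which acts on elastic fibres, was also lower (−1.50, adjusted p = 0.0163), so all 3 lysyl oxidases in the list were called.

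The proteinases and TIMP2 were not called after MG132. MMP2, the gelatinase and the most abundant remodelling enzyme on the mean over the 12 libraries, stood at 869.8, 921 and 843 FPKM in control and 1327, 1131 and 1084 FPKM after MG132. All 3 MG132 libraries were above all 3 controls, yet the difference of 0.42 (SE 0.13) had an adjusted p of 0.0582 in limma's test. It ranged from 0.26 to 0.66 over the alternatives and was called under 5 of them. MMP14, the membrane-bound activator of MMP2, differed by −0.32 (adjusted p = 0.322) and TIMP2, which takes part in that activation, by 0.03 (SE 0.10, adjusted p = 0.892).

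The 1 called proteoglycan was versican (VCAN), a large hyaluronan-binding proteoglycan, at 161, 118 and 157 FPKM in control and 36.4, 14.5 and 15.2 FPKM after MG132. Its groups did not overlap (−2.78, SE 0.41, adjusted p = 0.00216). Perlecan (HSPG2), of basement membranes, stood at 26.5, 27.3 and 24.4 FPKM in control and at 24.2, 16.6 and 15.6 FPKM after MG132. All of its MG132 values were below the lowest control, MG132 1 by little, and the difference of −0.47 (adjusted p = 0.223) was not called. BGN, biglycan, differed by 0.09 (adjusted p = 0.403) at 0.81 to 1.57 FPKM, and DCN is described with the other members of very low values.

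Of the laminins, LAMB1, the beta chain of many basement membrane laminins, stood at 213, 153 and 228 FPKM in control and 91.8, 52.0 and 52.6 FPKM after MG132 (−1.61, SE 0.34, adjusted p = 0.0134). Its groups did not overlap. LAMA4, the alpha chain of laminins in vessel and muscle basement membranes, was at 20.6, 21.2 and 21.5 FPKM in control and 11.1, 13.4 and 13.4 FPKM after MG132 in the row used (ENSG00000263699; −0.70, SE 0.13, adjusted p = 0.00665). Since reads of LAMA4 were divided between 2 rows, each alone is uncertain. Their sum was 38.5 to 39.6 FPKM in control and 22.1 to 26.3 FPKM after MG132 (−0.67, adjusted p = 0.00369). LAMB2, another beta chain and the most abundant laminin member, stood at 209, 204 and 233 FPKM in control and at 410.3, 251 and 227 FPKM after MG132. MG132 3 lay within the control range, and the difference was not called (0.41, adjusted p = 0.401). LAMA5, LAMB3 and LAMC1 had differences of −0.56 to −0.13 and did not pass either.

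Collagen chains went both ways. COL1A1 (ENSG00000108821), the main chain of type I collagen, was at 20.6, 20.9 and 22.5 FPKM in control and 10.5, 9.12 and 9.29 FPKM after MG132 (−1.07, SE 0.20, adjusted p = 0.00769). COL8A1, a short-chain collagen of basement membranes, stood at 82.5, 81.9 and 107 FPKM in control and at 48.6, 42.5 and 38.8 FPKM after MG132 (−1.04, SE 0.14, adjusted p = 0.00116). COL12A1, which associates with collagen fibrils, stood at 31.3, 39.4 and 42.4 FPKM in control and 26.5, 20.7 and 20.0 FPKM after MG132 (−0.72, SE 0.21, adjusted p = 0.0456). In these 3 genes no MG132 library reached the lowest control. COL4A2, a chain of the type IV collagen network and the most abundant collagen member, was at 454, 341 and 519 FPKM in control and 221, 65.8 and 57.7 FPKM after MG132. The groups did not overlap, but MG132 1 was several times higher than the other 2, and the difference of −2.18 (SE 0.68) was not called (adjusted p = 0.061). Its partner COL4A1 differed by −1.31 (adjusted p = 0.0508), and COL4A5, COL7A1 and COL6A1 by 1.17, 0.65 and 0.62 (adjusted p = 0.0691, 0.0748 and 0.351). COL5A2, COL5A1, COL6A3 and COL1A2 differed by −0.46 to 0.26 and did not pass. COL6A2, a chain of the beaded-filament type VI collagen, was called higher at 1.43, 1.59 and 1.88 FPKM in control against 2.02, 4.08 and 3.35 FPKM after MG132 (0.63, SE 0.18, adjusted p = 0.0487). These levels were 1.35 to 3.68 times the value of a row without reads, so the call concerns very low values.

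**Figure D3:**
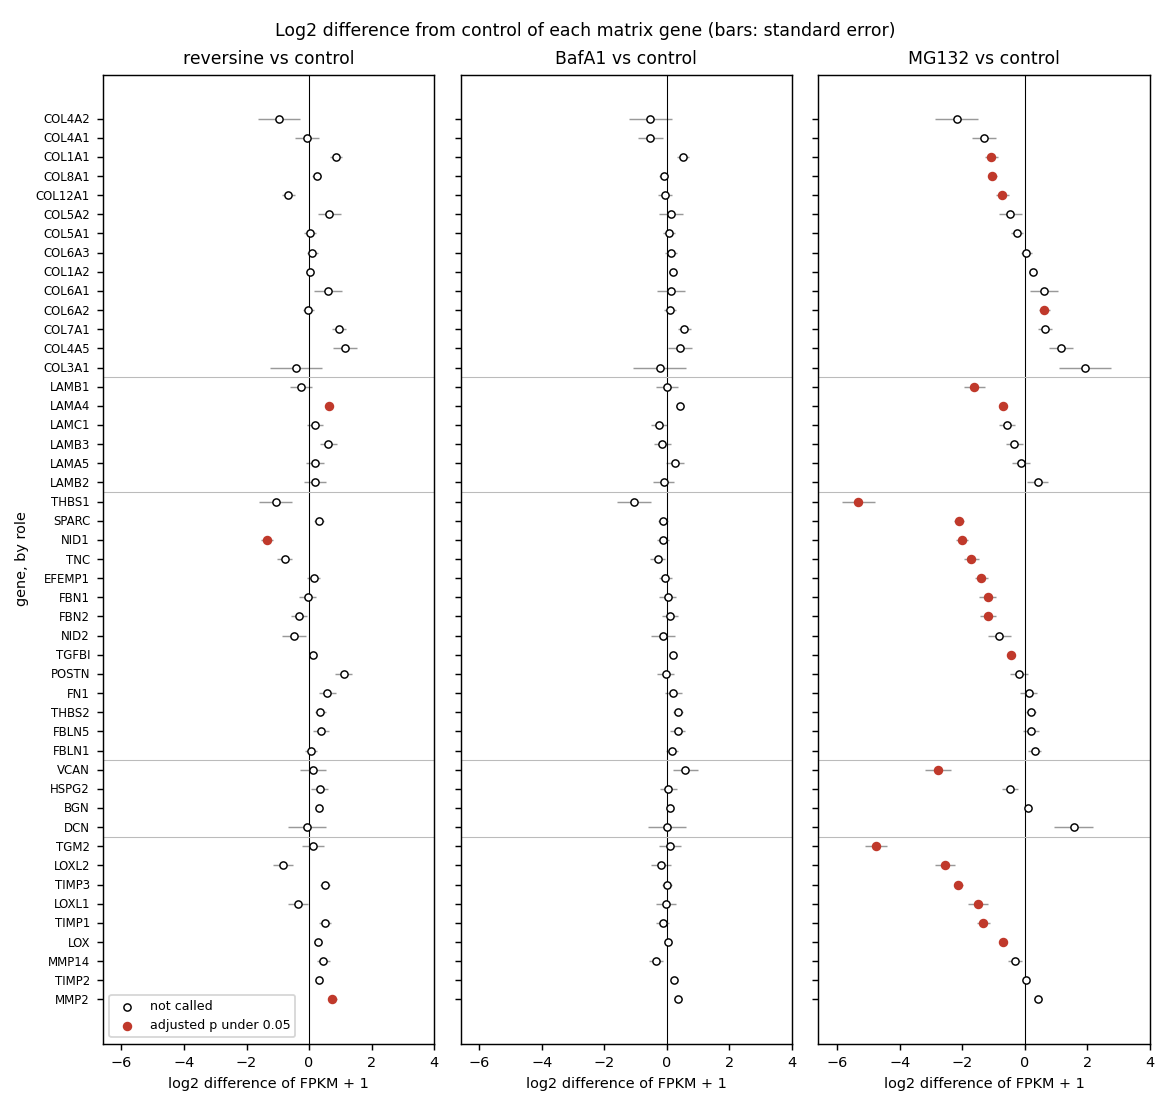
Log2 difference from control of each tested member (scale of log2(FPKM + 1)), by role, after reversine, BafA1 and MG132; points are estimates, bars standard errors, filled points an adjusted p under 0.05. The MG132 panel has 21 filled points, 20 of them left of 0, the reversine panel 3 (NID1, LAMA4 and MMP2) and the BafA1 panel none.

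Some calls ended when 1 library was left out, while the differences kept their direction. Leaving out control 1, control 3, MG132 2 or MG132 3 ended the calls of LAMB1, FBN1, FBN2, LOXL1 and TGFBI (adjusted p of 0.0503 to 0.0889 in limma's test); the difference of LAMB1 then ran from −1.55 to −1.48, that of FBN1 from −1.22 to −1.04 and that of LOXL1 from −1.50 to −1.34. The COL12A1 call ended without any 1 of the controls, reversine 2 or 3, BafA1 1 or 2, or MG132 2 or 3 (differences of −0.85 to −0.64, adjusted p of 0.0528 to 0.17). The COL6A2 call ended without any 1 of the controls, the reversine libraries, the BafA1 libraries, MG132 2 or MG132 3 (differences of 0.46 to 0.69, adjusted p of 0.0522 to 0.151). The 19 members called lower with a known GC content had a median GC of 49.6%, the 27 other tested members 53.9% and all tested rows 47.8%, and the part of the GC trends in these calls was not tested beyond the fits given.

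The comparison of reversine with control looks at cells 48 h after the inhibitor was removed. NID1 fell, and MMP2 and, in the row used, LAMA4 rose. The other 44 members, with differences of −1.07 to 1.15, did not pass. At an unadjusted p under 0.05 there were 16 members, these 3 included, and 11.8% of all rows. By adjusted p, 2.09% of all rows were called. The median difference of the members was 0.19 and that of all rows 0.093. NID1 stood at 6.69, 8.86 and 7.23 FPKM in reversine 1 to 3, all far below the 18.4 to 21.9 FPKM of the controls (−1.34, SE 0.20, adjusted p = 0.00955). This comparison and that of MG132 share the control libraries. MMP2 (ENSG00000087245) stood at 1184, 1629.6 and 1651 FPKM against 843 to 921 FPKM in the controls (0.75, SE 0.13, adjusted p = 0.0185). All reversine libraries were above all controls, reversine 1 least. LAMA4 stood at 35.5, 32.7 and 33.1 FPKM in the row used, against 20.6 to 21.5 FPKM (0.65, SE 0.13, adjusted p = 0.0378). With its 2 rows summed the values were 52.4 to 54.7 FPKM after reversine and the call was lost (0.44, adjusted p = 0.0902).

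These 3 calls ended when some single libraries were left out, with the direction of each kept. That of NID1 was −1.30 without control 1 or control 3 (adjusted p of 0.0599 and 0.0558). MMP2 lost its call without control 1, 2 or 3, reversine 2 or reversine 3 (0.66 to 0.78, adjusted p of 0.0631 to 0.0927). LAMA4 lost it without any 1 of the controls, the reversine libraries or the BafA1 libraries, or without MG132 2 or MG132 3 (0.61 to 0.67, adjusted p of 0.0581 to 0.181). With the 4 GC-falling libraries left out, which removes reversine 1, 8 members were called (3.05% of all rows): NID1 lower, and COL1A1, COL6A1, FN1, LAMB2, TIMP1, MMP2 and MMP14 higher.

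Reversine 1 stood apart from the other 2 libraries of its group in several abundant members. THBS1 was at 514, 1402 and 1331 FPKM in reversine 1 to 3, below all controls, and its difference of −1.07 (SE 0.54) did not pass (adjusted p = 0.439). FN1 was at 1333, 2176 and 2114 FPKM, above all controls (0.58, adjusted p = 0.439). COL4A2 was at 86.7, 338 and 367 FPKM (−0.96, adjusted p = 0.619). In each of these genes reversine 1 was the lowest of its group. COL1A1 was at 28.0, 46.6 and 47.8 FPKM, higher than every control (0.87, SE 0.20, adjusted p = 0.073). POSTN, periostin, a matricellular protein that binds collagen, was instead highest in reversine 1, at 11.8, 5.84 and 4.94 FPKM against 2.5 to 3.11 FPKM in control (1.11, adjusted p = 0.0981). SPARC (1558, 2311 and 2190.5 FPKM), TGM2 (779.9, 1631 and 1531 FPKM), VCAN (105, 205 and 179 FPKM) and TIMP1 (188, 291 and 350.5 FPKM) each had reversine libraries inside or below the control range and others above it. TIMP3, at 31.8, 29.9 and 26.9 FPKM, lay above all controls (0.51, adjusted p = 0.15). LOXL2 (172, 337 and 321 FPKM) and TNC (9.74, 16.6 and 18.8 FPKM) lay below all controls (−0.84 and −0.77, adjusted p = 0.315 and 0.184).

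The comparison of BafA1 with control covers 6 h of blocked lysosomal acidification. Of the members 0 passed limma's test, with 4 of the 47 (COL1A1, COL7A1, LAMA4 and MMP2) at an unadjusted p under 0.05 and all 4 of these above control. At that unadjusted threshold stood 7.12% of all rows. The 47 differences ran from −1.05 to 0.59. Of all rows 0.264% were called, and the median difference was 0.05 over members and 0.141 over all rows. COL1A1 stood at 29.7, 33.2 and 30.02 FPKM, above the 20.6 to 22.5 FPKM of the controls (0.52, SE 0.20, adjusted p = 0.478). MMP2 stood at 1159, 1052 and 1136 FPKM, again above every control (0.35, SE 0.13, adjusted p = 0.478). THBS1 was at 1352, 1275 and 588 FPKM, below every control, with BafA1 3 far below the other 2 (−1.05, SE 0.54, adjusted p = 0.562). VCAN was at 258, 283 and 139 FPKM, and again BafA1 3 stood apart (0.59, SE 0.41, adjusted p = 0.733). SPARC (1545, 1436 and 1388 FPKM), TGM2 (1389, 1342 and 987 FPKM), TIMP3 (21.5, 19.4 and 20.4 FPKM) and NID1 (20.2, 20.3 and 16.5 FPKM) were not separated from the control values. Their differences were −0.13, 0.09, 0.00 and −0.12, with standard errors of 0.16, 0.35, 0.15 and 0.20. With the GC trend as a batch term, FN1 (0.43, adjusted p = 0.0243) and VCAN (0.93, adjusted p = 0.0241) were called higher (1.22% of all rows called), and with a correction for GC and length COL1A1 was (0.57, adjusted p = 0.0172; 1.47% of all rows).

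The treated groups were also compared with each other, although exposure and collection times differ. MG132 was lower than reversine in 16 members and lower than BafA1 in 19, and higher in none; 6.51% and 10.9% of all rows were called in these comparisons, 3.52% and 6.37% as lower. These comparisons share the MG132 libraries with each other and with the comparison against control. Against reversine the differences were −4.88 for TGM2, −4.25 for THBS1, −2.90 for VCAN, −2.63 for TIMP3 and −2.42 for SPARC. Against BafA1 they were −4.85, −4.28, −3.37, −2.12 and −1.97. COL1A1 was lower by −1.94 (adjusted p = 0.000612) and −1.59 (adjusted p = 0.00114). POSTN was called against reversine (−1.29, adjusted p = 0.0267). NID1 was lower after MG132 than after BafA1 (−1.89, adjusted p = 0.000397) and was not called between MG132 and reversine. Without MG132 1, 32 members were called between MG132 and reversine, beside 55.8% of all rows, and with these 2 groups fitted alone 6, beside 1.12%. Between reversine and BafA1 1 member was called: NID1, lower after reversine (−1.22, SE 0.20, adjusted p = 0.0201; 1.23% of all rows). That call ended without control 1, any 1 of the reversine libraries or any 1 of the BafA1 libraries (adjusted p of 0.052 to 0.117).

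Other genes of matrix assembly, from lists drawn up beside the 49, were counted in the same fit. After MG132, 7.67% of all rows tested were called lower and 7.14% higher, and the counts of each list stand beside these shares. Of 27 tested integrins and other matrix receptors, 10 were lower and 1 higher, with a median difference of −0.65 against 0.039 over all rows. The syndecans SDC3 (−2.31, adjusted p = 0.000207) and SDC1 (−2.42, adjusted p = 0.000972), which carry heparan sulfate, and the integrin chain ITGB8 (−1.66, adjusted p = 0.00146) were lower, and ITGB3 was higher (1.17, adjusted p = 0.00452). Of 21 tested genes of TGF-beta ligands, latency proteins, receptors and targets, 8 were lower and 1 higher (median −0.72). PMEPA1, a TGF-beta target (−2.92, adjusted p = 0.00249), and the latent TGF-beta binding proteins LTBP2 (−2.11, adjusted p = 0.00267) and LTBP1 (−1.36, adjusted p = 0.00396) were lower, while the ligand TGFB2 was higher (2.14, adjusted p = 0.0208). Of 26 genes of collagen modification and secretion, 4 were lower and 3 higher (median −0.22). COLGALT1, which glycosylates collagen (−1.94, adjusted p = 0.000799), was lower, and MIA3, which helps export procollagen from the endoplasmic reticulum (1.52, adjusted p = 0.000511), P4HA2, a prolyl hydroxylase subunit (1.29, adjusted p = 0.000634), and PLOD2, a lysyl hydroxylase (2.37, adjusted p = 0.0199), were higher.

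Of 22 tested other matrix proteases and crosslinkers, 4 were lower and 6 higher after MG132 (median −0.16), beside 7.67% and 7.14% of all rows. The sheddase ADAM10 was lower (−1.21, adjusted p = 0.00164), and MMP24 (1.57, adjusted p = 3.84e-05) and the aggrecanase ADAMTS1 (2.03, adjusted p = 0.0051) were higher. MMP24 was low, with means of 0.46 FPKM in control, 0.523 after BafA1, 1.6 after reversine and 3.36 after MG132. It passed the filter on low values only through the groups where it was high, which limits what its calls show. Of 49 tested other structural matrix genes, 12 were lower and 2 higher (median 0.14). SPP1, osteopontin, was higher (2.90, adjusted p = 1.72e-05) and SRPX lower (−1.80, adjusted p = 0.000123). After reversine, few genes of these lists were called, all higher, beside 0.801% of all rows called higher and 1.29% lower. They were 1 of 26 in collagen modification, 0 of 27 receptors and 2 of 21 TGF-beta genes. Of the other proteases 2 of 22 were called, and of the other structural genes 1 of 49. Among them were ACTA2, smooth muscle actin (1.28, adjusted p = 0.00242), SPP1 (1.32, adjusted p = 0.00403), MMP24 (0.84, adjusted p = 0.00493), the collagen-cleaving cathepsin CTSK (1.00, adjusted p = 0.0218) and ADAMTS14, a procollagen peptidase (1.16, adjusted p = 0.0241). ADAMTS14, at means of 0.753 FPKM in control and 3.01 FPKM after reversine, passed the filter only through the reversine group. After BafA1, CYR61, a matricellular protein that binds integrins, was lower (−0.87, adjusted p = 0.0215), with a mean of 328 ± 1.69 FPKM in control and 179 ± 13.2 FPKM after BafA1 (SD, n = 3).

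Several members were so low that their values say little. Apart from the rows listed at exactly 0, rows without reads hold a small positive value that depends on transcript length, and this was estimated for each library from olfactory receptor genes. COL1A2 and LUM were within 2 times that value in all 12 libraries, and COL3A1, COL5A1, COL6A2, COL6A3, THBS2, FBLN1, FBLN5, POSTN, BGN and DCN in some. COL3A1, a fibrillar collagen, stood at 71.0 FPKM in MG132 2, 23.2 in MG132 3 and 7.62 in control 3, and at 2.25 to 3.74 FPKM in the other libraries. DCN, decorin, a small proteoglycan that binds collagen fibrils, stood at 59.3, 21.4 and 8.71 FPKM in the same 3 libraries and at 4.96 to 7.08 FPKM elsewhere. MG132 1, at 3.29 and 6.68 FPKM, did not share these values. Neither gene was called after MG132 (1.92 and 1.56, adjusted p = 0.118 and 0.1). Summed over 7 blood cell markers, MG132 2 and MG132 3 stood at 21.6 and 16.2 FPKM and the other libraries at 7.86 to 11.8 FPKM, with PTPRC up to 13.2 FPKM and CD3E under 1 FPKM in every library. The part of such RNA in the values of COL3A1 and DCN was not tested.

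**Figure D4:**
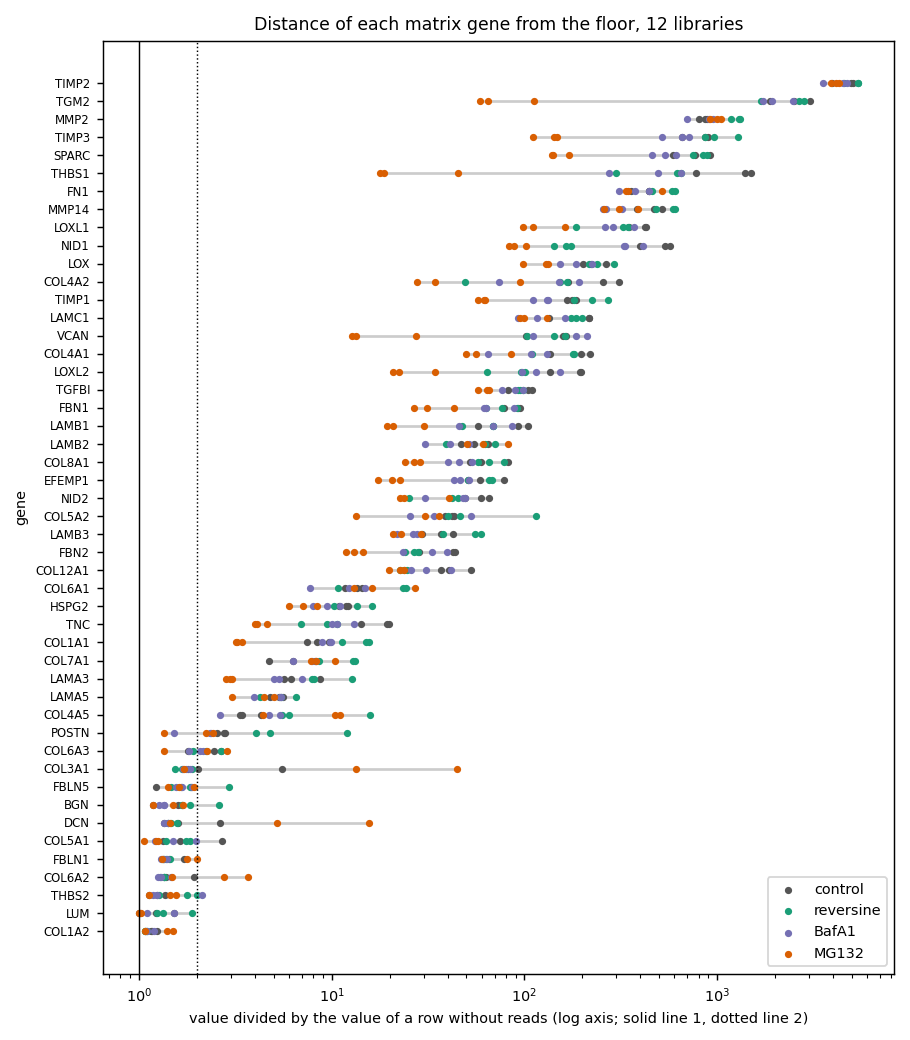
Each member's value in the 12 libraries (dots, coloured by group) divided by the value of a row without reads of the same transcripts, on a log axis. The solid line is 1 and the dotted line 2. LAMA4 is left out, since the transcript lengths of the row used, and so its distance from that value, are unknown. COL1A2 and LUM stay left of the dotted line, COL3A1 and DCN reach 45.0 and 15.7 in MG132 2, and the MG132 dots of TGM2, THBS1 and VCAN lie far left of the other groups but right of 10.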

How the data were processed

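Oligo(dT)-selected RNA was turned into TruSeq libraries and read as 50 nt, per the labels' protocols. Per the submitters' processing notes, the authors used Bowtie 1.0.0, RSEM 1.2.6 and the build hg19. The deposited table names no unit. Its values were taken as FPKM because column totals differ (962891 to 2057717), and what the authors did to scale them is not given in the sources used here. Reads shared by near-identical rows are divided by estimation.

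The main test was limma 3.58.1 (trend method, R 4.3.3) on log2(FPKM + 1), with rows of at least 1 FPKM in at least 3 libraries (30712 of 53361), one fit of the 4 groups, 6 comparisons, 8 residual degrees of freedom and 1.26 from the prior. The script was tested on simulated data. Samples were grouped by the treatment in the labels, and replicate numbers follow the order of the records. Alternatives, 22 planned and 2 added after seeing the data, changed the pseudocount (0.1), filter, scaling, prior, GC handling or libraries; the added ones left out control 3, MG132 2 and MG132 3, or summed the LAMA4 rows.

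GC content and lengths came from GENCODE v29 by transcript identifier. It holds none of the transcripts of the LAMA4 row used, so that row has neither. The GC trend of a library was its slope over 8049 rows above 5 FPKM in every library. That set was chosen after slopes over all tested rows had given other signs, which decides which 4 libraries count as falling. The value of a row without reads came from 359 olfactory receptor rows, as a library constant times the summed inverse of transcript length, and the limit of 2 times was set after values were seen.

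The members and all lists were chosen with earlier results of these data known. Library values are given for at most 5 called members per role, by smallest adjusted p, and the 2 most abundant; other named members were chosen after their values were seen. From lists, at most 3 called genes per direction are named, and some genes that this rule takes are not reported here. Promoters come from a RefSeq table (GRCh38.p14) that matched 36 of 49 members.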

Additional observations from a re-analysis of the deposited data

How the results depend on the processing

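Of 60 calls of a member in a comparison, recomputed under 24 other settings, 2 of them added after seeing the data, 0 of 1434 values changed direction and 231 lost the call. Settings that changed only the filter, the prior or libraries of groups not compared left the difference itself unchanged. Its direction could not change in these, so they do not bear on it. After MG132, 11 members were called against control (2.99% of all rows) and 10 against BafA1 (2.86%) with quantile normalization. Without control 3, MG132 2 and MG132 3 the counts were 4 against control, 4 against reversine and 5 against BafA1 (1.78%, 0.701% and 1.82% of all rows), with MG132 1 assumed to vary like the other groups. Against reversine 6 were called with the 2 groups compared alone (1.12% of all rows) and 27 with the GC trend as a batch term (11.4% of all rows). Reversine against control gave 1 with quantile normalization (0.277%), 11 with the GC and length correction (6.69% of all rows), 8 without the GC-falling libraries (3.05%), 13 with the batch term (5.71% of all rows), 0 for the 2 groups alone (15 at an unadjusted p under 0.05, beside 11% of all rows) and 0 without control 3, MG132 2 and MG132 3 (10, and 10.2%). BafA1 against control gave 1 with the GC and length correction (1.47%) and 2 with the batch term (1.22%). Reversine against BafA1 gave 8, 3 and 6 under the GC and length correction, without the GC-falling libraries and with the batch term (3.51%, 0.843% and 3.85% of all rows). It gave 0 with quantile normalization, for the 2 groups alone and without control 3, MG132 2 and MG132 3 (11, 7 and 10 at an unadjusted p under 0.05, beside 3.02%, 6.76% and 8.27% of all rows). Leaving out 1 library gave 14 to 29 calls for MG132 against control (7.91% to 42.5% of all rows), 11 to 32 against reversine (3.14% to 55.8%) and 15 to 28 against BafA1 (6.04% to 60.2%). For reversine against control it gave 0 to 4 (0.802% to 2.79% of all rows). The 0 came without control 1 or control 3, with 12 and 14 at an unadjusted p under 0.05, beside 8.25% and 8.22% of all rows. For reversine against BafA1 it gave 0 to 2 (0.464% to 1.49% of all rows). Where that count was 0, 8 to 12 members were at an unadjusted p under 0.05, beside 5.34% to 6.94% of all rows. For BafA1 against control it gave 0 (1 to 7 at an unadjusted p under 0.05, beside 4.04% to 12.8% of all rows). The cause of these changes was not tested. Quantile normalization moved the median of all rows from 0.093 to −0.284 after reversine, from 0.141 to −0.386 after BafA1 and from 0.039 to 0.119 after MG132, and the GC and length correction moved it to −0.261 after MG132. All rows split into 2192 higher and 2357 lower after MG132, and into 1649 and 2879 with median-ratio scaling, under which 1 member was higher and 21 lower. No paired analysis was possible because the replicate numbers only follow the order of the records. Depth was only estimated, as a ratio between libraries, so no counting interval could be given. The 12 members near the value of a row without reads cannot be ranked by level.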
